A study of Rattus norvegicus with 65 samples.

Results

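The Bcl2 family decides whether the outer mitochondrial membrane of a cell stays closed, and its transcripts were followed here in cultured heart muscle cells exposed to 3 drugs. The family was taken as 10 listed rat genes, and every row of the count table that carried one of these symbols was used. Of the 10 listed genes, 8 had a row among the 14554 genes in all: the effectors Bax and Bak1, the BH3-only genes Pmaip1, Bid, Bcl2l11 and Bad, and the antiapoptotic genes Bcl2 and Bcl2l1. The listed genes Bbc3 and Mcl1 were not analysed here. All 8 measured members passed the filter on low counts, which removed 0 genes.

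RNA sequencing was performed on 65 libraries of primary neonatal rat cardiomyocytes, whose cells had been mixed from the hearts of 3 litters taken on the same day, plated, and deprived of serum overnight. The cultures received 5-fluorouracil (5FU, 10 mM), acetaminophen (Ace, 2.5 mM) or doxorubicin (Dox, 1.25 μM) and were lysed after 6 or 24 hours. The solvent was DMSO throughout: DMSO1 (1% DMSO) served as control for 5FU, and DMSO2 (0.25% DMSO) for both Ace and Dox. There were 6 libraries each for DMSO1 and 5FU at both times and for Ace at 6 hours, and 7 libraries for every other group. Because all wells came from the same mixed preparation of cells, the p-values measure the spread between parallel cultures and not between animals.

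Bax and Bak1 encode the effectors that assemble into pores in the outer mitochondrial membrane and release cytochrome c, which sets off the caspase cascade. Bcl2, Bcl2l1 (Bcl-xL) and Mcl1 encode proteins that hold the effectors in check, and the BH3-only proteins either block these guardians or engage the effectors directly. Heart muscle cells are long-lived and divide little, and loss of cardiomyocytes through this pathway is a recognised part of anthracycline toxicity. Messenger RNA does not show the location, cleavage or binding of these proteins, through which much of the pathway is controlled.

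The sequences upstream of the members were read from RefSeq (build GRCr8), which held a window for 7 of the 8 measured members. Windows of 250 bases ending just before the annotated start are shown for Pmaip1, Bid and Bcl2l1, the 3 members with such a window that rose most under Dox at 24 hours, and for Bak1 and Bcl2, the 2 members that fell. They lie at chr18:62255720-62255969 (plus strand) for Pmaip1, chr4:155808320-155808569 (minus strand) for Bid, chr3:161764776-161765025 (minus strand, outermost of several annotated starts) for Bcl2l1, chr20:5110975-5111224 (minus strand) for Bak1 and chr13:23366901-23367150 (minus strand) for Bcl2. Capitals mark the GC box (GGGCGG) and the half-site of the cAMP response element (TGACG), each searched on both strands, so that a half-site on the opposite strand reads CGTCA.
Pmaip1: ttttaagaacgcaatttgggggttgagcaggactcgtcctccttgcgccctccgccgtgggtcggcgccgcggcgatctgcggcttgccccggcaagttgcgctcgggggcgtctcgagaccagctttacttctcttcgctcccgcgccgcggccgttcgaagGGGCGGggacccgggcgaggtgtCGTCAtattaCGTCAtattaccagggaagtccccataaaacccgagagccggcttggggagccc
Bid: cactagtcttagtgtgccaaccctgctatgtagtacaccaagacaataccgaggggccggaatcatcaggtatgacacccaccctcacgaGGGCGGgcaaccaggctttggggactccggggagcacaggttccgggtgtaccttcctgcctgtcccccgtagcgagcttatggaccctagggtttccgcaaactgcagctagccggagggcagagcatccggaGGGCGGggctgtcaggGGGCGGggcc
Bcl2l1: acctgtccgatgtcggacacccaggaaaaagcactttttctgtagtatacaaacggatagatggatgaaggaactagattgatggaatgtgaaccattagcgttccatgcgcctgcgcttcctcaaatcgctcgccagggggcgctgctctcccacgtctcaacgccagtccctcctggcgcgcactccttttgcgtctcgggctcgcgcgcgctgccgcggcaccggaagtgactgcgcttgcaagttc
Bak1: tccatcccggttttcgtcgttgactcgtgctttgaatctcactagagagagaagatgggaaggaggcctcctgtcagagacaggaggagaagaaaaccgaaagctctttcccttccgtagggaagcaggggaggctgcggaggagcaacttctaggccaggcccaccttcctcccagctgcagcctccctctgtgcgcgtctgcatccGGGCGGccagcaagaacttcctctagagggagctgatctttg
Bcl2: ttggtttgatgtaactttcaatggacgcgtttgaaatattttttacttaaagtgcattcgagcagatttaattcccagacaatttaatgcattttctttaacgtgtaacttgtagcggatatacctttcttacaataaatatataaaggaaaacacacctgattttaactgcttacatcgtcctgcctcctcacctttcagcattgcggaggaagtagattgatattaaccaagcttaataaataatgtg
The Pmaip1 window held 2 half-sites, at bases -64 and -54 from the start, and 1 GC box at -87. The half-site was found in 18.2% of all 33469 RefSeq windows of this length, and among the 7 members only in Pmaip1. A GC box stood in 4 of the 7 members' windows, against 30.5% of all windows, and Bid had 3 of them, at -160, -26 and -10. The full cAMP response element (TGACGTCA, which contains the half-site) was in none of the 7 windows, and in 1.59% of all windows. The half-site bound by p53, of 10 bases, was searched as well and was in none of the 7 windows, and in 6.64% of all windows. GC content ranged from 33.6% in Bcl2 to 64.8% in Pmaip1 among the windows shown, around a median of 51.2% over all windows. These matches describe letters within the window and no binding was measured.

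Total counts per library ranged from 14332827 to 25738297. Levels in CPM (counts relative to the library total, scaled by the trimmed mean of M-values, TMM) are given below by the lowest, median and highest library of a group, and changes as log2 fold changes with their standard error (SE) and the false discovery rate (FDR) of edgeR's quasi-likelihood test, adjusted over all 14554 genes in each of 16 comparisons. A change was called at an FDR below 0.01. Levels are compared within a gene only, since no transcript lengths were used. Libraries are numbered in the order of the table's columns. In 4 libraries the profile stood apart from the other libraries of the same group, with a root mean square distance from the mean of those libraries of 0.469 log2 units for DMSO1 library 1 at 24 hours, 0.446 for 5FU library 1 at 6 hours, 0.429 for Dox library 7 at 24 hours and 0.405 for DMSO1 library 3 at 6 hours, and of at most 0.403 for all others. These 4 were chosen after seeing the data and no gap set the last of them apart, since Dox libraries 7 and 4 at 6 hours were at 0.403 and 0.397. DMSO1 library 3 was nearer to DMSO2 at 6 hours (0.320) than to DMSO1, and so, by less, were DMSO1 library 2 (0.314 against 0.323) and library 4 (0.298 against 0.318) to DMSO2 at 24 hours, which were kept throughout. Where a call for a member changed without the 4 libraries, it is given both ways.

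The 10 cardiomyocyte markers summed to at least 22520 CPM in every library, and none of them was at 0. At 24 hours the summed cardiomyocyte markers were 38563 to 50335 CPM in DMSO2 and 22520 to 29740 CPM in Dox, and 8 of the 10 genes were lower in Dox. Marker counts are to be read beside the share of all genes called lower, at 24 hours 41% in Dox, 27.8% in 5FU and 19.1% in Ace. At 6 hours this share was 32.7% in Dox, 24.5% in 5FU, 15.2% in Ace and 6.6% in DMSO1 against DMSO2. The 8 fibroblast markers summed to 15099 to 18894 CPM in DMSO2 and 1917 to 4064 CPM in Dox, with 8 of 8 lower, and the 5 measured endothelial markers to 181 to 236 CPM and 16.2 to 37.2 CPM, with 5 of 5 lower. Fibroblast markers were also lower at 24 hours in 5FU (5166 to 5837 CPM, against 9972 to 19903 CPM in DMSO1, 8 of 8), where 6 of the 10 cardiomyocyte markers were lower too, and in Ace (7249.6 to 9277 CPM, 8 of 8). Endothelial markers at 24 hours summed to 94.7 to 115 CPM in 5FU, against 146 to 193 CPM in DMSO1, with 4 of 5 lower. In Ace they summed to 102 to 182 CPM, with 3 of 5 lower. Macrophage markers summed to 28.2 to 38.6 CPM in Dox and 52.2 to 64.4 CPM in DMSO2, and smooth muscle and pericyte markers to 342 to 1646 CPM and 767 to 892 CPM. At 6 hours the endothelial markers were already lower in Dox (48.5 to 82.4 CPM, against 143 to 191 CPM in DMSO2, 5 of 5), as were 6 of the 8 fibroblast markers (7758 to 10176 CPM against 9687 to 14458 CPM). Of the 6 smooth muscle and pericyte markers, 4 were higher and 1 lower in Dox at 6 hours (1144 to 3305 CPM against 996 to 1331 CPM), beside 31.5% of all genes higher. In DMSO1 against DMSO2 at 6 hours 3 of these 6 were higher and 2 lower (1072 to 4326 CPM), beside 9.87% of all genes higher. Fibroblast markers were also lower at 6 hours in Ace (7331 to 10953 CPM, 6 of 8) and in DMSO1 against DMSO2 (6495 to 10914 CPM, 7 of 8). In 5FU at 6 hours 2 of the 8 were lower, and the sums overlapped (6413 to 10756 CPM, against 6495 to 10914 CPM in DMSO1). Endothelial markers at 6 hours were below DMSO2 in Ace (97.5 to 125 CPM, 2 of 5 lower) and in DMSO1 (88.6 to 128 CPM, 3 of 5 lower). In 5FU 2 of the 5 endothelial markers were lower at that time, and the sums overlapped those of DMSO1 (74.3 to 107 CPM). The part of these marker shifts in the members' changes was not tested. Fewer cells of a type and less RNA per cell cannot be told apart in these libraries.

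**Figure D1:**
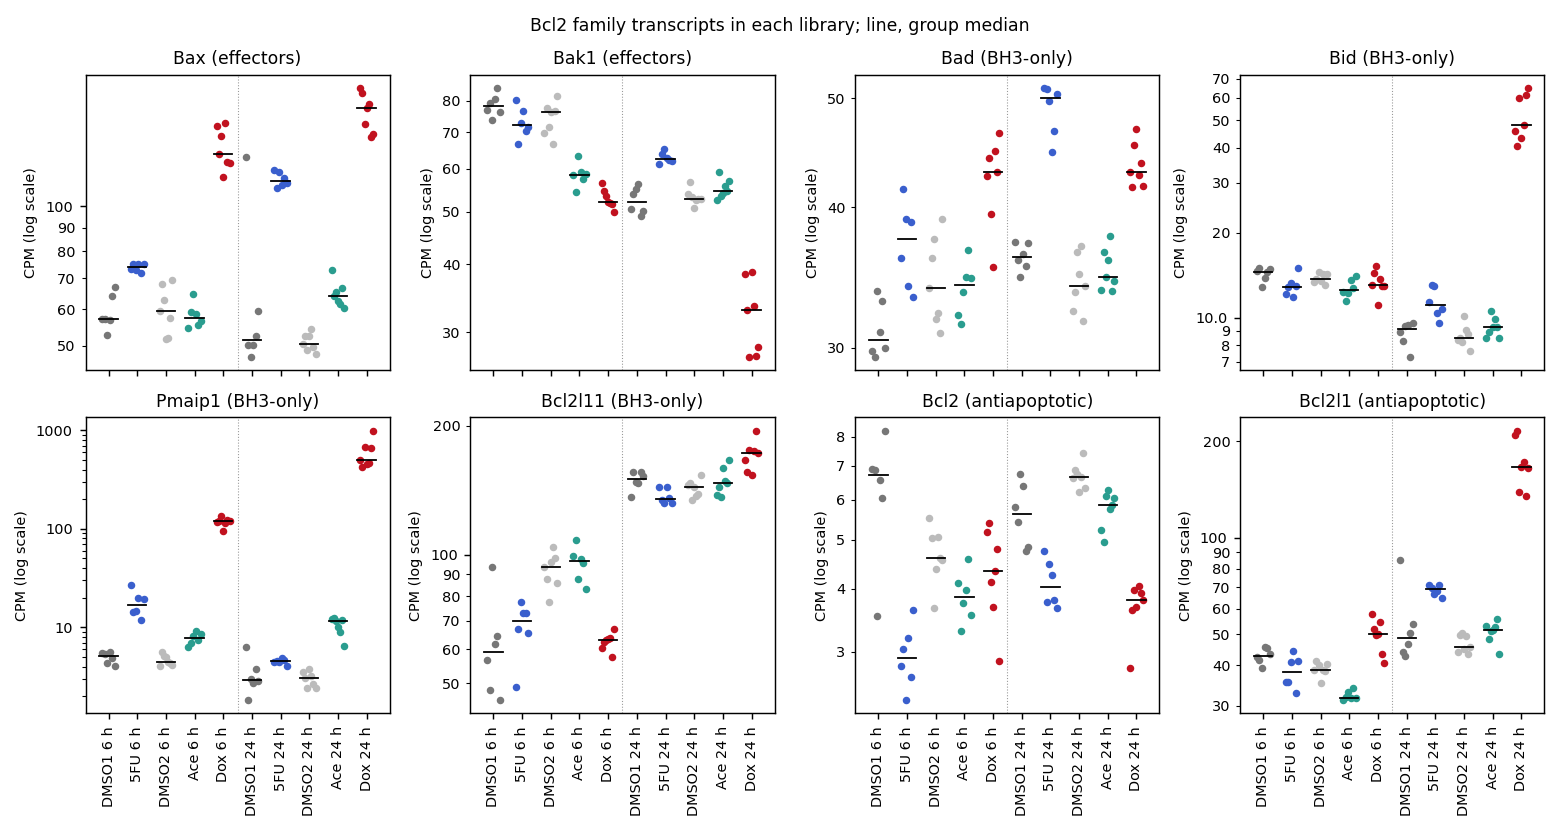
Level of each measured member in CPM (log axis, its own scale in each panel) in all 65 libraries, with 1 point per library and a line at the group median, 6-hour groups left of the dotted line and 24-hour groups right of it. Pmaip1 climbs from a median of 3.03 CPM in DMSO2 to 496 CPM in Dox at 24 hours, while Bak1 and Bcl2 are lower in Dox than in DMSO2 at that time.

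Doxorubicin at 24 hours moved every measured member. Of the 8 members, 6 were higher and 2 lower than in DMSO2, and the libraries of the 2 groups did not overlap for any of them, as was the case for 68.2% of all genes. The comparison called 81.4% of all genes (40.4% higher and 41% lower), so that a called gene was common in this comparison and the sizes of the changes say more than their number. The members' median log2 fold change was 0.9999, against 0.0028 over all genes. Bax, Bcl2l1, Bid and Pmaip1 rose by 3.14-fold to 198-fold, Bcl2l11 and Bad by 1.19-fold and 1.27-fold, and Bak1 and Bcl2 fell.

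Among the effectors, Bax was measured at 47.9, 50.5 and 54.3 CPM (lowest, median, highest) in DMSO2 and at 141, 163 and 180 CPM in Dox at 24 hours. Its level was 3.14-fold higher (log2 fold change 1.65 ± 0.11 SE, FDR 6.38e-22). At 6 hours Bax already stood at 116, 130 and 152 CPM in Dox against 51.7, 59.3 and 69.3 CPM in DMSO2, which was 2.23-fold higher (1.16 ± 0.11, FDR 6.02e-15). All Dox libraries were above all DMSO2 libraries at both times.

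In 5FU, Bax was at 71.9, 74.1 and 75.3 CPM at 6 hours and at 109, 114 and 120 CPM at 24 hours. The DMSO1 libraries were at 52.7, 57.1 and 67.1 CPM and at 47.3, 51.4 and 128 CPM. The 6-hour difference did not pass the threshold (log2 fold change 0.32 ± 0.12, FDR 0.0147), although the libraries did not overlap. It was called by the DESeq2 Wald test (0.33, FDR 0.00899), with only the compared groups in the fit (0.32, FDR 0.000384), and without the 4 libraries that stood apart (0.29, FDR 0.000399). The 24-hour difference passed (0.82 ± 0.12, FDR 7.17e-09). The highest DMSO1 value at 24 hours came from library 1, the library that stood apart, and the next was 59.5 CPM. Without that library the 24-hour log2 fold change was 1.14. In Ace, Bax was at 60.3, 64.1 and 72.9 CPM at 24 hours, above every DMSO2 library (0.35 ± 0.11, FDR 0.00598), a call that was lost on leaving out Ace library 1 or DMSO2 library 3, 6 or 7, with log2 fold changes between 0.32 and 0.36. At 6 hours the Ace difference was -0.05 ± 0.11 (FDR 0.775).

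Bak1, the second effector, went the other way in Dox. It was at 50.8, 52.8 and 56.6 CPM in DMSO2 and at 27.01, 32.9 and 38.7 CPM in Dox at 24 hours, a fall to 0.606 of control (log2 fold change -0.72 ± 0.05, FDR 2.16e-19). At 6 hours it was at 66.6, 76.2 and 81.5 CPM in DMSO2, 54.3, 58.5 and 63.3 CPM in Ace and 49.9, 52.1 and 56.4 CPM in Dox. Bak1 was therefore lower in both Ace (-0.34 ± 0.05, FDR 3.81e-07) and Dox (-0.49 ± 0.05, FDR 9.74e-13) at 6 hours, with no overlap with DMSO2 in either. In Ace the difference was 0.05 ± 0.05 (FDR 0.431) at 24 hours. In 5FU Bak1 was higher at 24 hours, at 61.2, 62.5 and 65.3 CPM against 49.2, 52.2 and 56.3 CPM in DMSO1 (0.26 ± 0.06, FDR 5.82e-05), and showed -0.11 ± 0.06 (FDR 0.1004) at 6 hours, which was called when counts were scaled by library size alone (-0.18, FDR 0.00818).

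Pmaip1, which encodes the BH3-only protein Noxa that binds Mcl1, had the largest change of the members in 5 of the 6 drug comparisons, all but 5FU at 24 hours. In DMSO2 it was at 4.04, 4.42 and 5.61 CPM at 6 hours and 2.43, 3.03 and 3.80 CPM at 24 hours. Dox raised it to 95.7, 119 and 134 CPM at 6 hours and to 426, 496 and 985 CPM at 24 hours. These were 25.1-fold (log2 fold change 4.65 ± 0.17, FDR 3.05e-34) and 198-fold (7.63 ± 0.19, FDR 1.94e-44) differences. The highest 24-hour value belonged to Dox library 7, which stood apart, and leaving out any 1 library kept the log2 fold change between 7.49 and 7.73. Among all 14554 genes ordered by log2 fold change Pmaip1 was 38th in Dox at 6 hours and 42nd at 24 hours. The other members that rose at 24 hours ranked lower: Bid 903rd, Bcl2l1 1418th, Bax 1676th, Bad 5518th and Bcl2l11 5985th. Bak1 and Bcl2, which fell, were 10740th and 11227th.

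In 5FU Pmaip1 was called at 6 hours only, and in Ace at both times. It was at 11.8, 16.97 and 26.9 CPM in 5FU at 6 hours, above the 4.03, 5.14 and 5.58 CPM of DMSO1 in every library (3.59-fold, log2 fold change 1.84 ± 0.18, FDR 2.55e-13). At 24 hours it was at 4.07, 4.52 and 4.88 CPM in 5FU and 1.83, 2.93 and 6.33 CPM in DMSO1, which did not pass the threshold (0.39 ± 0.23, FDR 0.142). The highest DMSO1 value was again library 1. Without it the log2 fold change was 0.67 (FDR 0.0132), and without all 4 libraries that stood apart Pmaip1 passed the threshold at 0.66 (FDR 0.00271). In Ace, Pmaip1 was at 6.29, 7.76 and 9.19 CPM at 6 hours (1.66-fold, 0.73 ± 0.19, FDR 0.00137) and at 6.48, 11.6 and 12.3 CPM at 24 hours (3.48-fold, 1.80 ± 0.19, FDR 6.82e-12). No Ace library overlapped DMSO2 at either time.

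Bid, which links death receptors to mitochondria once caspase 8 has cleaved it, rose in Dox at 24 hours. It was at 7.61, 8.48 and 10.2 CPM in DMSO2 and at 40.4, 48.1 and 64.9 CPM in Dox at 24 hours, 5.99-fold higher (log2 fold change 2.58 ± 0.08, FDR 2.38e-38). At 6 hours the groups overlapped, at 13.1, 13.7 and 14.5 CPM and 11.1, 13.02 and 15.3 CPM (-0.05 ± 0.08, FDR 0.585). In 5FU it was higher at 24 hours (9.58, 11.1 and 13.1 CPM against 7.28, 9.12 and 9.60 CPM in DMSO1, 0.36 ± 0.09, FDR 0.000428), where the lowest 5FU and the highest DMSO1 library overlapped, and gave no call at 6 hours (-0.14 ± 0.09, FDR 0.169). Ace gave -0.12 ± 0.08 (FDR 0.271) and 0.10 ± 0.09 (FDR 0.346).

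Bcl2l11, which encodes the BH3-only protein Bim, changed direction in Dox between the time points. At 6 hours it was at 57.5, 63.1 and 66.9 CPM in Dox, below the 77.6, 93.3 and 104 CPM of DMSO2 in every library (log2 fold change -0.55 ± 0.08, FDR 3.51e-08). At 24 hours it was at 154, 173 and 194 CPM in Dox and 134, 143 and 154 CPM in DMSO2 (0.26 ± 0.08, FDR 0.00343), with the nearest libraries just apart. In 5FU the differences were 0.13 ± 0.09 (FDR 0.226) and -0.12 ± 0.09 (FDR 0.215), and in Ace 0.05 ± 0.09 (FDR 0.659) and 0.06 ± 0.08 (FDR 0.610). DMSO1 library 3, at 93.7 CPM, was far above the other 6-hour DMSO1 libraries (45.7 to 64.4 CPM), and without it the 6-hour 5FU difference was 0.29 (FDR 0.00133) and was called, as it was without the 4 libraries that stood apart (0.36, FDR 2.09e-05).

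Bad, a BH3-only protein that phosphorylation holds inactive, moved little. It was at 44.8, 50.1 and 51.1 CPM in 5FU and 34.7, 36.1 and 37.3 CPM in DMSO1 at 24 hours (1.35-fold, log2 fold change 0.44 ± 0.05, FDR 2.37e-10), without overlap. In Dox at 24 hours it was at 41.7, 43.02 and 46.98 CPM, against 31.7, 34.1 and 36.9 CPM in DMSO2 (0.35 ± 0.05, FDR 6.49e-09). At 6 hours the 5FU difference was 0.25 ± 0.05 (FDR 7.69e-05) and the Dox difference 0.29 ± 0.05 (FDR 6.18e-07), both with overlapping libraries. Both 6-hour calls were lost when counts were scaled by library size alone, to 0.18 (FDR 0.0119) and 0.14 (FDR 0.0231), a scaling that moved the median of all genes by -0.15 for Dox at 6 hours. Ace gave -0.03 ± 0.05 (FDR 0.724) and 0.04 ± 0.05 (FDR 0.550).

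Of the antiapoptotic members, Bcl2l1 was higher and Bcl2 lower in Dox at 24 hours. Bcl2l1 was at 43.3, 45.6 and 50.4 CPM in DMSO2 and at 135, 166 and 215 CPM in Dox at 24 hours, 3.66-fold higher (log2 fold change 1.87 ± 0.09, FDR 2.74e-28), with every Dox library above every DMSO2 library. At 6 hours it was at 40.6, 50.04 and 57.9 CPM against 35.4, 38.7 and 41.3 CPM (0.36 ± 0.09, FDR 0.000536), with an overlap, and that call was lost under scaling by library size alone (0.20, FDR 0.0523). In 5FU it was at 65.02, 69.1 and 71.1 CPM at 24 hours and in DMSO1 at 42.9, 48.7 and 85.2 CPM (0.35 ± 0.10, FDR 0.00150). The 85.2 CPM came from DMSO1 library 1, the next library was at 53.9 CPM, and without library 1 the groups were apart and the log2 fold change was 0.53. The call was lost with only the compared groups in the fit (0.34, FDR 0.0271). The 5FU difference was -0.16 ± 0.10 (FDR 0.160) at 6 hours. Ace gave -0.27 ± 0.10 (FDR 0.0199) at 6 hours, where no library overlapped DMSO2, and 0.12 ± 0.09 (FDR 0.284) at 24 hours. The 6-hour Ace difference was called with only the compared groups in the fit (FDR 3.72e-05) and without the 4 libraries that stood apart (FDR 0.00400). In the RefSeq models the Bcl2l1 locus overlaps the pseudogene Rps2-ps43, which had a row of its own with 77.5 to 105 CPM in DMSO2 and 111 to 151 CPM in Dox at 24 hours, and the Bcl2l11 locus overlaps Acoxl, at 1.09 to 2.56 CPM and 3.19 to 5.28 CPM. How far reads were shared between these pairs was not tested.

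Bcl2, the founding guardian of the family, rested on few reads, 46 to 159 per library over all groups. At 24 hours it was at 6.20, 6.64 and 7.43 CPM in DMSO2 and 2.79, 3.79 and 4.04 CPM in Dox, a fall to 0.551 of control without overlap (log2 fold change -0.86 ± 0.12, FDR 8.28e-10). At 6 hours Dox gave -0.11 ± 0.12 (FDR 0.394). In 5FU it was lowest early, at 2.41, 2.92 and 3.63 CPM at 6 hours against 3.53, 6.71 and 8.21 CPM in DMSO1 (0.467 of control, -1.10 ± 0.13, FDR 4.23e-11). The single overlap came from DMSO1 library 3 at 3.53 CPM, and without it the log2 fold change was -1.22. At 24 hours 5FU held 3.66, 4.02 and 4.75 CPM and DMSO1 4.75, 5.62 and 6.75 CPM (-0.47 ± 0.13, FDR 0.000941), the nearest libraries just apart. Ace gave -0.28 ± 0.12 (FDR 0.0603) and -0.22 ± 0.11 (FDR 0.0956).

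**Figure D2:**
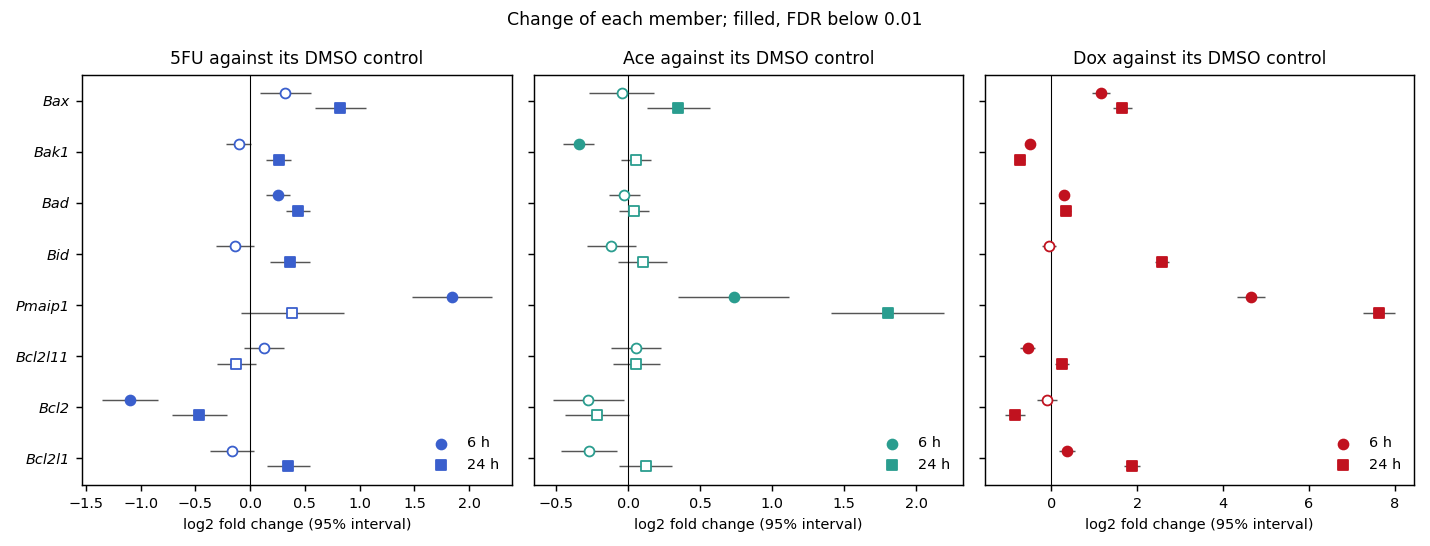
Log2 fold change of each member (horizontal axis, its own scale for each drug) in 5FU against DMSO1 and in Ace and Dox against DMSO2, with 95% intervals, circles at 6 hours and squares at 24 hours, filled where the FDR was below 0.01. Pmaip1 has the largest value in Dox (4.65 and 7.63), and at 24 hours Bak1 lies right of 0 in 5FU (0.26) and left of 0 in Dox (-0.72).

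In 5FU 3 of the 8 members were called at 6 hours (2 higher and 1 lower), where 47.9% of all genes were called (23.4% higher and 24.5% lower). At 24 hours 6 were called (5 higher and 1 lower) beside 55.8% of all genes (28% higher and 27.8% lower). In Ace 2 members were called at 6 hours (Pmaip1 higher, Bak1 lower) beside 31.7% (16.5% and 15.2%), and 2 at 24 hours (Pmaip1 and Bax, both higher) beside 37.2% (18.2% and 19.1%). In Dox 6 were called at 6 hours (4 higher and 2 lower) beside 64.2% (31.5% and 32.7%). The members' median log2 fold change in 5FU, Ace and Dox was 0.01, -0.08 and 0.12 at the early time, then 0.36, 0.08 and 0.9999 at the late time, against medians of all genes from -0.0094 to 0.0030. Without the 4 libraries that stood apart, the members called numbered 5 at 6 hours and 7 at 24 hours in 5FU, 3 and 2 in Ace, and 6 and 8 in Dox. With only the compared groups in the fit, 4 were called in 5FU at 6 hours and 5 at 24 hours. In Ace at 6 hours that fit called 3. The DESeq2 Wald test called 4 in 5FU at 6 hours. With scaling by library size alone, the split of higher and lower members became 1 and 2 in 5FU and 2 and 2 in Dox at 6 hours.

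Several effects differed between the time points, tested as the 24-hour log2 fold change minus that at 6 hours. In Dox 7 of the 8 members were called (5 higher and 2 lower, beside 64.8% of all genes, 34% and 30.8%), with the largest differences for Pmaip1 (2.98 ± 0.25, FDR 9.78e-17), Bid (2.63 ± 0.11, FDR 6.14e-30) and Bcl2l1 (1.52 ± 0.13, FDR 1.81e-16). Bcl2l11 differed by 0.81 ± 0.12 (FDR 1.02e-08) and Bax by 0.50 ± 0.15 (FDR 0.00276). The Dox effects on Bcl2 (-0.75 ± 0.16, FDR 5.47e-05) and Bak1 (-0.23 ± 0.08, FDR 0.00484) were more negative at 24 hours. The Bak1 call was lost on leaving out DMSO2 library 1, 5 or 6 at 6 hours or Dox library 2, 3, 6 or 7 at 24 hours (range -0.28 to -0.17). It was also lost with the filter of edgeR's filterByExpr (-0.21, FDR 0.0102), without the 4 libraries that stood apart (-0.20, FDR 0.0117), with only the compared groups in the fit (-0.24, FDR 0.0230), and under scaling by library size alone (-0.03). That scaling moved the median of all genes from 0.07 to 0.27 here and the split to 6 higher and 1 lower. Bad was the exception (0.05 ± 0.07, FDR 0.508).

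In 5FU 6 members differed between the times (5 higher and 1 lower, beside 39.5% of all genes, 20.3% and 19.2%). Pmaip1 had the smaller effect at 24 hours (-1.46 ± 0.30, FDR 4.49e-05). The effect on Bcl2 was less negative at 24 hours (0.63 ± 0.18, FDR 0.00244), and those on Bcl2l1 (0.51 ± 0.14, FDR 0.00174), Bid (0.50 ± 0.13, FDR 0.000673) and Bak1 (0.37 ± 0.08, FDR 0.000101) were higher. The Bax difference (0.50 ± 0.16, FDR 0.00820) lay close to the threshold: it was lost on leaving out any of 16 of the 24 libraries (5FU libraries 1 to 5 at 6 hours and 1, 3, 5 and 6 at 24 hours, and DMSO1 libraries 5 and 6 at 6 hours and 2 to 6 at 24 hours), and was 0.82 without DMSO1 library 1 at 24 hours. With only the compared groups in the fit, the calls for Bax (FDR 0.0765), Bcl2 (0.62, FDR 0.0166) and Bcl2l1 (0.4962, FDR 0.0132) were lost and 3 members remained called. Bcl2l11 gave -0.25 (FDR 0.0909) and was called without DMSO1 library 3 at 6 hours (-0.41, FDR 0.000895) and without the 4 libraries that stood apart (-0.52, FDR 9.46e-06), which made 7 members. In Ace 2 members differed (both higher, beside 11.6% of all genes, 5.58% higher and 6.06% lower), Pmaip1 by 1.07 ± 0.28 (FDR 0.00339) and Bak1 by 0.40 ± 0.08 (FDR 5.89e-05). Without the 4 libraries 4 members were called in Ace, with Bax (0.39, FDR 0.000429) and Bcl2l1 (0.39, FDR 0.00491) added. These 2 were also added with only the compared groups in the fit (FDR 0.000495 and 5.60e-05).

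**Figure D3:**
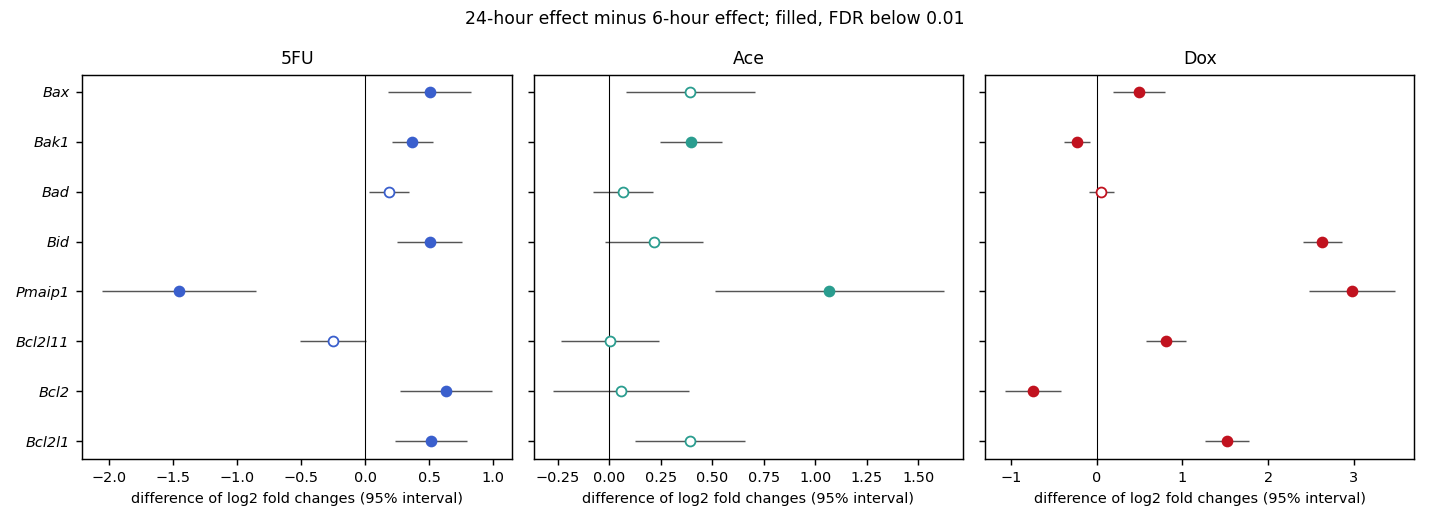
Difference between the 24-hour and the 6-hour log2 fold change of each member (horizontal axis, its own scale for each drug), with 95% intervals, filled where the FDR was below 0.01. Pmaip1 lies left of 0 in 5FU (-1.46) and right of 0 in Ace (1.07) and Dox (2.98).

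The drugs were also compared with each other, although they differ in dose and target. The Dox effect was larger than the 5FU effect for Pmaip1 by 2.81 ± 0.25 at 6 hours (FDR 4.72e-15) and 7.24 ± 0.32 at 24 hours (FDR 3.64e-30), and for Bax by 0.84 ± 0.16 (FDR 6.38e-06) and 0.83 ± 0.16 (FDR 3.53e-06). In all, 6 members were called at each time (4 higher and 2 lower at 6 hours beside 45.9% of genes, 22% and 24%; 5 higher and 1 lower at 24 hours beside 71.1%, 35.8% and 35.4%). Bak1 was the member with the lower Dox effect at both times (-0.39 ± 0.08, FDR 1.57e-05, and -0.98 ± 0.08, FDR 7.42e-18). For Bcl2l11 the difference between the effects changed sign, from -0.68 ± 0.12 (FDR 3.12e-06) to 0.38 ± 0.12 (FDR 0.00365). At 6 hours the controls differed, with Bcl2l11 lower in DMSO1 than in DMSO2 (-0.57 ± 0.09, FDR 9.12e-07). The Dox and 5FU libraries overlapped for Bcl2l11 at that time, with medians of 63.1 CPM in Dox and 70.1 CPM in 5FU. For Bcl2 the 5FU effect, measured against DMSO1, was the more negative at 6 hours (0.99 ± 0.17, FDR 1.52e-06). Here too the controls differed, with Bcl2 higher in DMSO1 than in DMSO2 (0.43 ± 0.12, FDR 0.00352). The drug groups overlapped (2.88 to 5.39 CPM in Dox, 2.41 to 3.63 CPM in 5FU). The 24-hour Bcl2 difference of -0.39 ± 0.17 did not pass (FDR 0.0332) except with only the compared groups in the fit (-0.41, FDR 0.0090). For Bid the difference was 2.22 ± 0.12 at 24 hours (FDR 3.09e-25) and 0.09 ± 0.12 at 6 hours (FDR 0.551).

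Against Ace, which shares DMSO2 and the DMSO dose with Dox, Dox had 5 members called at 6 hours (4 higher and 1 lower, beside 62.1% of genes, 30.6% and 31.4%) and 7 at 24 hours (5 higher and 2 lower, beside 80.6%, 40.7% and 39.9%). Pmaip1 was 15.1-fold (log2 difference 3.92 ± 0.17, FDR 2.64e-30) and 56.9-fold (5.83 ± 0.16, FDR 3.07e-41) higher in Dox. Bak1, which both drugs lowered at 6 hours, showed a difference between them that did not pass the threshold (-0.15 ± 0.05, 95% interval -0.26 to -0.04, FDR 0.0146). It passed with scaling by library size alone (-0.27, FDR 4.86e-05), with only the compared groups in the fit (-0.15, FDR 0.00615), without the 4 libraries that stood apart (-0.15, FDR 0.00895), and on leaving out Ace library 2 or 6 or Dox library 1, and not with DESeq2 (-0.11, FDR 0.0511 by the Wald test). With scaling by library size alone, which moved the median of all genes from 0.01 to -0.11 here, 4 were higher and 2 lower at 6 hours. For Bid at 6 hours the difference was 0.07 ± 0.08, with a 95% interval from -0.10 to 0.24. Bcl2l11, the member not called at 24 hours (0.20, FDR 0.0205), was called without the 4 libraries (0.20, FDR 0.00259), with only the compared groups in the fit (0.18, FDR 0.00662) and with DESeq2 (0.25, FDR 0.00351 by the Wald test), and on leaving out Ace library 4 or Dox library 2 or 4.

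The controls themselves were not alike. DMSO1 and DMSO2 at 6 hours differed in 2 members, beside 16.5% of all genes (9.87% higher and 6.6% lower): Bcl2l11 was lower in DMSO1 (-0.57 ± 0.09, FDR 9.12e-07) and Bcl2 higher (0.43 ± 0.12, FDR 0.00352). DMSO1 library 3 was outside this pattern for both genes, and without it the values were -0.73 and 0.56. The Bcl2 call was lost on leaving out DMSO1 library 1, 2 or 6 or DMSO2 library 3 (range 0.35 to 0.56) and with only the compared groups in the fit (FDR 0.0478), and with scaling by library size alone the 2 called members were both lower. At 24 hours edgeR's quasi-likelihood test called 0 members between the controls, beside 0.433% of all genes (0.137% higher and 0.295% lower), and the DESeq2 Wald test called 0. At an unadjusted p under 0.05, 3 of the 8 passed, Bax (0.35 ± 0.11), Bcl2l1 (0.20 ± 0.10) and Bcl2 (-0.24 ± 0.12). Without DMSO1 library 1 the Bax and Bcl2l1 differences were 0.03 and 0.02.

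In the controls 5 of the 8 members differed between 24 and 6 hours (2 higher and 3 lower at 24 hours, averaged over DMSO1 and DMSO2, beside 64.6% of all genes, 32.7% and 31.9%). Time in culture and time of exposure to DMSO ran together and cannot be told apart here. Bcl2l11 was 1.94-fold higher at 24 hours (0.95 ± 0.06, FDR 1.04e-21), beside drug effects on this gene of -0.55 to 0.26. Bcl2l1 was higher (0.30 ± 0.07, FDR 9.37e-05), and Bid (-0.68 ± 0.06, FDR 1.30e-15), Pmaip1 (-0.58 ± 0.16, FDR 0.000824) and Bak1 (-0.53 ± 0.04, FDR 2.08e-19) were lower. Bax gave -0.06 ± 0.08 (FDR 0.541), and -0.21 with a call on leaving out DMSO1 library 1 at 24 hours. Bad gave 0.10 (FDR 0.0128) and was called with DESeq2 (0.11, FDR 0.00675 by the Wald test), which made 6 members, and on leaving out any of 7 libraries (DMSO1 library 3 or 5 at 6 hours, and DMSO2 library 1, 3 or 7 at 6 hours and 1 or 6 at 24 hours). Without the 4 libraries that stood apart 7 members were called, with Bax (-0.23, FDR 2.12e-05) and Bad (0.11, FDR 0.00927) added.

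Ordered by group median over all 10 groups, the members fell into a few shapes. Pmaip1 had Dox at 24 hours and Dox at 6 hours at the top, each apart from the next group in every library, and the controls at 24 hours at the bottom. Bid and Bcl2l1 had only Dox at 24 hours far above the rest: the next group for Bid was DMSO1 at 6 hours (14.6 CPM), and for Bcl2l1 5FU at 24 hours (69.1 CPM), itself apart from the group below it. Bak1 had the controls at 6 hours at the top and Dox at 24 hours at the bottom (32.9 CPM), apart from its neighbour. For Bad and Bcl2 all 9 pairs of neighbouring groups overlapped, and for Bax 8 of 9, with the 1 gap between 5FU at 24 hours (114 CPM) and 5FU at 6 hours (74.1 CPM). For Bcl2l11 every 24-hour group was above every 6-hour group.

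The Bax to Bcl2 ratio, a customary reading of the balance between an effector and a guardian, is given as a description only, as log2 of the CPM ratio per library. At 24 hours its lowest, median and highest values were 2.74, 2.93 and 3.08 in DMSO2, 3.32, 3.42 and 3.80 in Ace and 5.17, 5.36 and 6.02 in Dox. For 5FU they were 4.66, 4.80 and 4.94, against 2.81, 3.34 and 4.46 in DMSO1, where library 1 was the highest. At 6 hours they were 4.59, 4.98 and 5.43 in Dox, 3.59, 3.94 and 4.17 in Ace and 3.36, 3.64 and 4.10 in DMSO2, and 4.37, 4.67 and 4.92 in 5FU against 3.03, 3.09 and 3.90 in DMSO1. The 5FU and Dox libraries lay above those of their control at both times, and the Ace libraries at 24 hours only. Of the 2 genes, edgeR's quasi-likelihood test on all groups called Bcl2 in 5FU at 6 hours (-1.10, with Bax at 0.32), and Bax in Dox at 6 hours (1.16, with Bcl2 at -0.11).

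**Figure D4:**
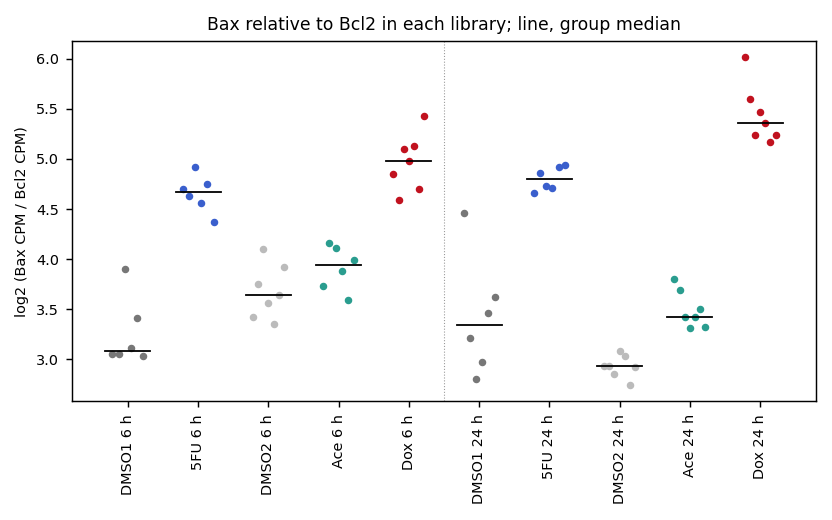
Log2 ratio of Bax CPM to Bcl2 CPM in each library (points) with the group median (line), 6-hour groups left of the dotted line. The medians are 4.67 and 4.80 in 5FU and 4.98 and 5.36 in Dox, against 2.93 to 3.64 in the control groups.

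For each member the 3 genes with the most similar course over the 10 group means of log2 CPM were found, with no test, as the groups share cells and culture. Pmaip1 was followed most closely by Nectin1 (r = 0.994), Tmem120a (0.992) and Agpat5 (0.986), and Bid by Als2cl (0.988), Erbb3 (0.983) and Dhx37 (0.982). Bcl2l1 was followed by Nfe2l1 (0.984), Naa80 (0.981) and Nhlrc2 (0.978), and Bax by Atp6v1d (0.982), Glrx3 (0.980) and Cgrrf1 (0.978). The closest genes were Dkc1 (0.975) for Bak1, Arrdc1 (0.974) for Bad, Cars2 (0.976) for Bcl2l11 and Kpna2 (0.950) for Bcl2. These are Pearson values, on which 1 extreme group weighs heavily, as Dox at 24 hours was for Bid (48.1 CPM, next group 14.6 CPM). Rank (Spearman) correlations with Bid were 0.855 for Als2cl, 0.939 for Erbb3 and 0.818 for Dhx37.

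The wider pathway was described from lists of its genes, none of which was tested as a set. The counts below are to be read against the share of all genes called, which at 6 and 24 hours was 47.9% and 55.8% in 5FU, 31.7% and 37.2% in Ace, and 64.2% and 81.4% in Dox. Of the other Bcl2 family genes, 9 of 13 were in the table. In Dox at 24 hours 4 were higher and 5 lower, with a median log2 fold change of -0.23. Bmf, a BH3-only gene, was lower at 6 hours (-0.97 ± 0.10, FDR 1.67e-13) and higher at 24 hours (1.20 ± 0.09, FDR 6.17e-19), as Bcl2l11 was. Bnip3, a mitophagy receptor, was higher at both times (1.31 and 1.10), and the antiapoptotic Bcl2a1 (-1.08) was lower at 24 hours. Bik, a BH3-only gene of the endoplasmic reticulum, was lower in 5 of the 6 drug comparisons (-0.32 to -0.79 where called). In 5FU, Bok, an effector-like relative, was higher at 24 hours (0.81), and Bcl2a1 was lower at both times (-0.85 and -0.78). In Dox at 6 hours 2 of the 9 were higher and 3 lower. In 5FU 1 of the 9 was higher and 3 lower at 6 hours, and 2 and 3 at 24 hours, and in Ace 1 and 3, then 0 and 4. With scaling by library size alone these became 1 and 5 in Dox and 0 and 5 in 5FU at 6 hours, and 1 and 2 in Ace at 24 hours.

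Downstream of the mitochondria, 13 of 14 apoptosome and caspase genes were in the table. Dox at 6 hours raised 6 and lowered 4, and at 24 hours raised 4 and lowered 5, with medians of -0.02 and 0.12. Apaf1, which forms the apoptosome with cytochrome c, rose by 0.87 ± 0.06 at 6 hours (FDR 6.37e-19) and by 2.07 ± 0.07 at 24 hours (FDR 2.03e-38). Dffa, the inhibitor of the nuclease that cuts DNA in apoptosis, rose by 0.90 and 1.79. Among the genes that were lower at 24 hours were Casp2 (-1.26), Casp8 (-1.05) and Casp9 (-0.39). In 5FU 3 genes were higher and 2 lower at 6 hours (5 lower with scaling by library size alone) and 4 and 4 at 24 hours, with Apaf1 lower at 6 hours (-0.59), Dffa lower at both times (-0.71 and -0.68) and Diablo, which neutralises the inhibitors of apoptosis, higher (0.31 and 0.68). In Ace 2 were higher and 1 lower at 6 hours and 4 and 2 at 24 hours, with Apaf1 higher at both (0.43 and 0.24).

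The 5 inhibitors of apoptosis (IAP) were all in the table. In Dox at 24 hours Birc3, which ubiquitinates partners in death receptor complexes, was higher (1.98 ± 0.12, FDR 3.79e-23), and Xiap, the direct caspase inhibitor, lower (-0.35). Of the 5, 3 were higher and 1 lower there, 1 and 1 in Dox at 6 hours, 1 and 2 and then 1 and 0 in 5FU, and 2 and 0 at each time in Ace. With scaling by library size alone they became 0 and 2 in Dox, 0 and 4 in 5FU and 1 and 1 in Ace at 6 hours, and none was higher in 5FU at 24 hours. Birc2 was higher in all 6 comparisons, by 0.15 to 0.51, except that under scaling by library size alone its Dox difference at 6 hours was -0.0015 and its calls in 5FU at both times and in Ace at 6 hours were lost. In the death receptor arm (6 of 8 in the table) Fas rose in Dox by 1.94 ± 0.15 (FDR 4.16e-18) and 2.84 ± 0.16 (FDR 8.31e-26) and in 5FU by 1.11 and 1.19, and in Ace was higher at 24 hours (0.74). Cflar, the inhibitor of caspase 8 activation, was lower in Dox at both times (-0.88 and -0.89). Of the 6 genes, Dox raised 2 and lowered 4 at 6 hours, then 4 and 2 at 24 hours. The counts were 2 and 1 and then 2 and 3 in 5FU, and 1 and 1 at each time in Ace. With that scaling 2 were lower in 5FU at 6 hours and 2 higher in Ace at 24 hours, and without the 4 libraries that stood apart 2 were higher in Ace at each time.

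Of the binding partners and genes of Mcl1 turnover (11 of 12 in the table), Bag1, a co-chaperone that binds Bcl2, rose in Dox (0.58 and 1.77), and Fbxw7, a ubiquitin ligase subunit that recognises Mcl1, rose too (1.08 and 1.43). Vdac3, a mitochondrial channel, fell at 24 hours (-2.18), with Vdac2 (-0.76) and Vdac1 (-0.55). In this list Dox raised 6 and lowered 1 at 6 hours, then 5 and 5 at 24 hours. The counts were 7 and 2 and then 5 and 1 in 5FU, and 4 and 0 and then 4 and 1 in Ace. With scaling by library size alone, 4 were lower in Dox, 4 higher in 5FU and 2 higher in Ace at 6 hours, and without the 4 libraries 1 was lower in Ace at 6 hours. Among the 12 upstream regulators, Dox raised 7 and lowered 4 at 6 hours, then 9 and 2 at 24 hours. The counts were 6 and 4 and then 4 and 4 in 5FU, and 4 and 1 at each time in Ace, where scaling by library size alone left 2 higher at 6 hours and 0 lower at 24 hours, and leaving out the 4 libraries gave 2 lower at 24 hours. Cdkn1a, an inhibitor of cyclin-dependent kinases, and Mdm2, a ubiquitin ligase, were higher in 5FU (1.87 and 2.10 for Cdkn1a, 1.82 and 1.34 for Mdm2) and in Dox (2.46 and 3.44, 0.90 and 2.81). In Ace, Cdkn1a was higher at both times (0.70 and 1.17), although the 6-hour call was lost under that scaling (0.66, FDR 0.0110), Mdm2 at 24 hours (0.91), and E2f1, the cell cycle factor, at both (0.92 and 1.76).

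**Figure D5:**
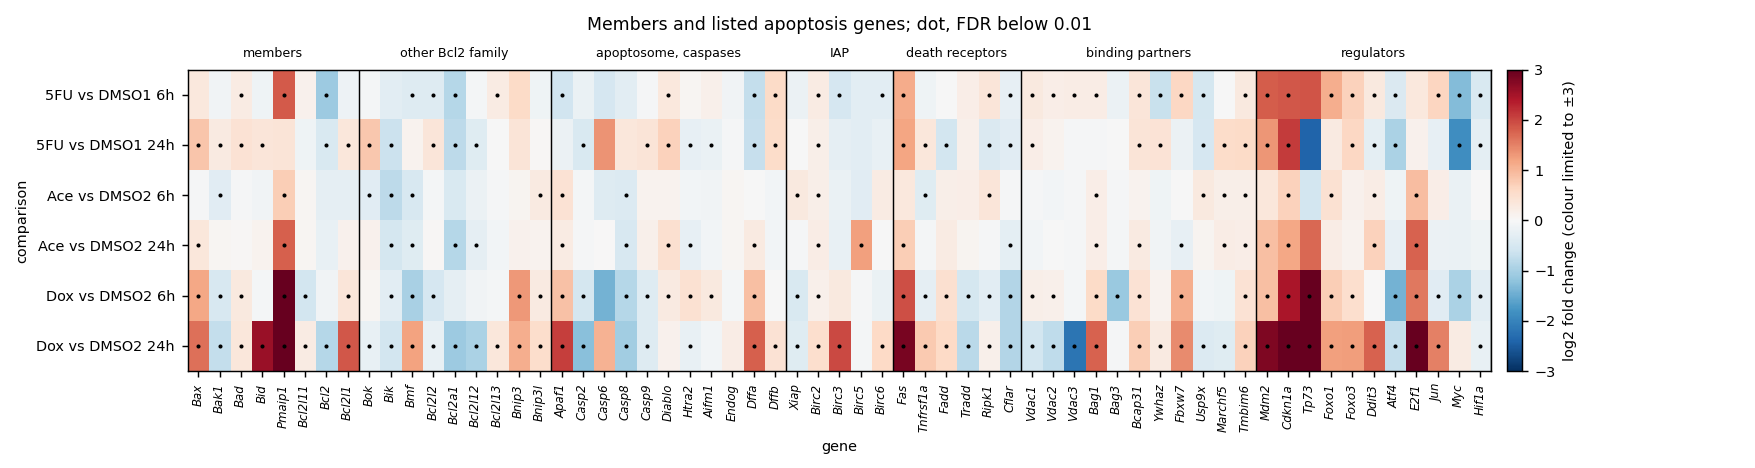
Log2 fold change (colour, limited to ±3) of the members and genes of the other lists (columns, grouped by list) in the 6 drug comparisons (rows), with a dot where the FDR was below 0.01. The strongest colours stand in the Dox row at 24 hours, for Pmaip1 (7.63), Cdkn1a (3.44) and E2f1 (3.59) among others.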

How the data were processed

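RNA was sequenced from 65 libraries in 10 groups, assigned by the labels. The authors quantified reads with kallisto 0.46.0 against the rat transcriptome, summed them to genes, and deposited estimated counts as whole numbers for 14554 genes, after removing genes under 10 in all samples. Normalization and tests were made from these counts. Of the gene IDs, 14009 had a symbol in RefSeq. A single edgeR 4.0.16 quasi-likelihood fit (R 4.3.3) with TMM scaling held all 10 groups. FDR is Benjamini-Hochberg adjusted over all genes, threshold 0.01, and no gene fell under the filter of 10 counts in 1 library. Intervals are 95%. Depth was 14332827 to 25738297 counts per library. The closest of 180 pairs of libraries of the same group still differed beyond sampling noise (chi-square per gene 2.98). Simulated counts with known changes were used to test the fit. Alternatives were DESeq2 1.42.0 (size factors and Wald test), scaling by library size alone, other filters, an FDR of 0.1, fits on the compared groups only, and leaving out libraries. Genes were named by rule: all members, genes of the pathway lists, and the 3 genes most like each member. Which list genes are given with values was chosen after those values were seen. Members and lists were chosen with earlier results of these data known. Upstream windows came from RefSeq (GRCr8). Some genes of the lists enter the counts but are not reported here by name.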

Additional observations from a re-analysis of the deposited data

Results flagged for a closer look

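Over 90 sets of libraries (8 members and the Bax to Bcl2 ratio in 10 groups), a single library far from the others was found 3 times, where chance gives about 5% of sets. Bax in DMSO1 library 1 at 24 hours was 128 CPM, against 59.5 CPM in the next library, and Bcl2l1 in the same library was 85.2 CPM against 53.9 CPM. Bcl2 in Dox library 1 at 24 hours was 2.79 CPM, below the next value of 3.63 CPM.

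A drug effect differed between 6 and 24 hours, by the test of the difference itself, for 15 pairs of member and drug. In 5FU the 24-hour log2 effect minus the 6-hour effect was 0.50 for Bax, 0.37 for Bak1, 0.50 for Bid, -1.46 for Pmaip1, 0.63 for Bcl2 and 0.51 for Bcl2l1. In Ace it was 0.40 for Bak1 and 1.07 for Pmaip1. In Dox it was 0.50 for Bax, -0.23 for Bak1, 2.63 for Bid, 2.98 for Pmaip1, 0.81 for Bcl2l11, -0.75 for Bcl2 and 1.52 for Bcl2l1.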

How the results depend on the processing

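Of the 128 results for a member in a comparison, 125 kept their direction and their side of the threshold with DESeq2 size factors, 124 with the DESeq2 Wald test, 126 with the filter of edgeR's filterByExpr, 128 with no filter, 115 with only the compared groups in the fit, 113 at an FDR of 0.1, 112 with scaling by library size alone, and 114 without the 4 libraries that stood apart (an alternative chosen after seeing the data). The cause of these changes was not tested. The number of members called became 5 for 5FU at 6 hours without the 4 libraries (from 3), 4 for Ace at 6 hours at an FDR of 0.1, and 1 for DMSO1 against DMSO2 both at 6 hours in the fit on the compared groups and at 24 hours at an FDR of 0.1. It became 3 for the difference between the 5FU effects at 24 and 6 hours in the fit on the compared groups, and 4 for that of Ace at an FDR of 0.1, on the compared groups, and without the 4 libraries. On leaving out each library in turn, the number was 1 to 2 for Ace at 24 hours and for DMSO1 against DMSO2 at 6 hours.

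Reversed signs were all of small values. With library size alone, Bak1 (-0.0049), Bid (-0.037) and Pmaip1 (-0.0043) in DMSO1 against DMSO2 at 6 hours, Bak1 at 24 hours (0.024), Bad in Dox against 5FU effects at 6 hours (-0.036), Bid in Dox against Ace at 6 hours (-0.055) and Birc2 in Dox at 6 hours (-0.0015) reversed. Without the 4 libraries, Bax (0.012) in DMSO1 against DMSO2 at 6 hours and Pmaip1 (-0.082) at 24 hours reversed. The Ace effect on Bcl2l11 at 24 minus 6 hours was -0.0030 with DESeq2 size factors, -0.0042 with filterByExpr and -0.0032 with the Wald test. Over the fits without a single library the values ran from -0.051 to 0.0052 for Bad in Ace at 6 hours, -0.058 to 0.015 for Bax between the controls at 6 hours, -0.041 to 0.0060 for Bak1, -0.0029 to 0.082 for Bid and -0.084 to 0.34 for Pmaip1 between them at 24 hours, and -0.044 to 0.042 for the Bcl2l11 difference in Ace. No paired analysis was possible because the columns of the table carry no replicate numbers. Counts of all genes called changed by over 1.5 times in 4 comparisons: Ace at 6 hours, 4619 and 7120 at an FDR of 0.1; DMSO1 against DMSO2 at 6 hours, 2397, with 4751 at that FDR and 1588 on the compared groups; the same at 24 hours, 63, with 764, 17 and, for the Wald test and without the 4 libraries, 184 and 32; and the Ace difference between times, 1694, with 3867 and 2697. In the control libraries Bcl2 rested on 70 to 159 reads and Pmaip1 on 31 to 125. The part of counting error in their spread was not tested.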
